A study of Mus musculus with 2 samples.

Results

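Chemokines are small secreted proteins that steer leukocytes, and in the embryo also progenitor cells, along concentration gradients. They are grouped by the spacing of their first cysteines into CC ligands (Ccl genes) and CXC ligands (Cxcl genes), and they act on G protein-coupled receptors of matching name (Ccr and Cxcr genes). In lung, epithelium, mesenchyme and endothelium make many of the ligands, while most of the receptors are carried by leukocytes. Some ligands, such as Cxcl12, are made continuously, and others, such as Cxcl1, Cxcl10 and Ccl2, are induced by inflammatory signals through NF-kappaB and interferon pathways.

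The chemokine and chemokine receptor genes described here are the protein-coding genes of the GENCODE mouse annotation whose symbol is Ccl, Cxcl, Ccr or Cxcr followed directly by a digit. There were 52 such genes among 21938 protein-coding genes: 23 CC ligands, 12 CXC ligands, 11 CC receptors and 6 CXC receptors. Cxcl11 is annotated as a polymorphic pseudogene in this mouse annotation and was therefore not among them. Chromatin of whole lung from newborn mice (postnatal day 0) of the strain B6NCrl was assayed by DNase-seq, which maps the places where DNase I can cut, in 1 group of 2 biological replicates. No treatment or mutant allele is listed, sex was not collected, and the replicates are separate biosamples under a common donor entry that does not say whether different animals or pools of animals were used. Differences between the replicates therefore measure only the spread between these samples, which may be technical.

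The deposited files list, for each replicate, peaks of 150 bp with a score and broader hotspots with a −log10 q value that stops at 100. What the score measures is not stated, so it was used to rank peaks. Replicate 1 had 276480 peaks on the 21 chromosomes used, with a median score of 50, and replicate 2 had 188498 with a median of 43; the read depth behind either list is unknown. Overlapping peaks of the replicates were merged into sites, and a site with a peak from both was called shared. Across the genome 161051 sites were shared. A promoter site was one that reached within 500 bp of any annotated transcription start of the gene. In whole tissue, fewer cells of a type and a less open site in each cell cannot be told apart. Promoters of marker genes fixed for the tissue had shared sites at 5 of 5 lung epithelial genes (Nkx2-1, Sftpc, Sftpb, Cdh1 and Epcam), 4 of 4 mesenchymal genes, 4 of 4 endothelial genes, 3 of 7 leukocyte genes and 1 of 3 genes of other tissues (Alb, the albumin gene). Over all protein-coding genes the share was 68.5%. By low, middle and high CpG number near the 5′ end it was 24.2%, 80.9% and 96.7%. The epithelial, mesenchymal and endothelial markers were all of middle or high CpG number. The leukocyte markers other than Cd3e were of low CpG number, so the marker groups do not stand on the same background.

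Of the 52 genes, 26 (50%) had a promoter site shared by both replicates, against 68.5% of all protein-coding genes. The exact Clopper-Pearson 95% interval of the share was 35.8% to 64.2%; such intervals cover counting error only. Replicate 1 alone listed a promoter peak at 30 of 52 genes, against 72.3% of all genes, and replicate 2 at 28, against 69.2%. Thus 4 genes had a peak in replicate 1 only and 2 in replicate 2 only, and 20 (38.5%) had none in either, against 27.1% of all genes. Of all 21938 genes, 15870 had a replicate 1 peak, 15190 a replicate 2 peak and 15032 a shared site. The share of all genes with a peak in 1 replicate only was not counted. The CXC ligands had shared promoter sites at 9 of 12 genes (75%, interval 42.8% to 94.5%) and the CC ligands at 9 of 23 (39.1%, 19.7% to 61.5%). CC receptors had them at 5 of 11 genes and CXC receptors at 3 of 6. The intervals of the families overlap.

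The groups by function are small and are to be read beside the 68.5% of all protein-coding genes. The neutrophil-attracting CXC ligands (Cxcl1, Cxcl2, Cxcl3, Cxcl5 and Cxcl15) had shared promoter sites at 4 of 5 genes (exact interval 28.4% to 99.5%). The constitutive or developmental CXC ligands (Cxcl12, Cxcl13, Cxcl14, Cxcl16 and Cxcl17) also had them at 4 of 5, with the same interval. The CC ligands that attract monocytes and eosinophils had 4 of 6 (22.3% to 95.7%), and the macrophage inflammatory protein group (Ccl3, Ccl4, Ccl5, Ccl6 and Ccl9) had 3 of 5 (14.7% to 94.7%). These intervals all hold the share of all genes. The CC ligands best known from lymphoid organs and from barrier epithelia had 2 of 12 (16.7%, 2.09% to 48.4%), an interval that does not hold the share of all genes. This group mixes promoters of low, middle and high CpG number, whose shares over all genes were 24.2%, 80.9% and 96.7%. Ccl25 was of the high class, Ccl19, Ccl21b, Ccl27a and Ccl27b of the middle class and the others of the low class. For Ccl19, Ccl21a, Ccl21b and Ccl27b, which had no site, and for Ccl27a, most of the sequence around the 5′ end recurs elsewhere in the genome. The part of CpG class or recurring sequence in this share was not tested. The 2 genes of the group with a site were Ccl25 and Ccl27a. They had the highest scores of all CC ligands.

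**Figure D1:**
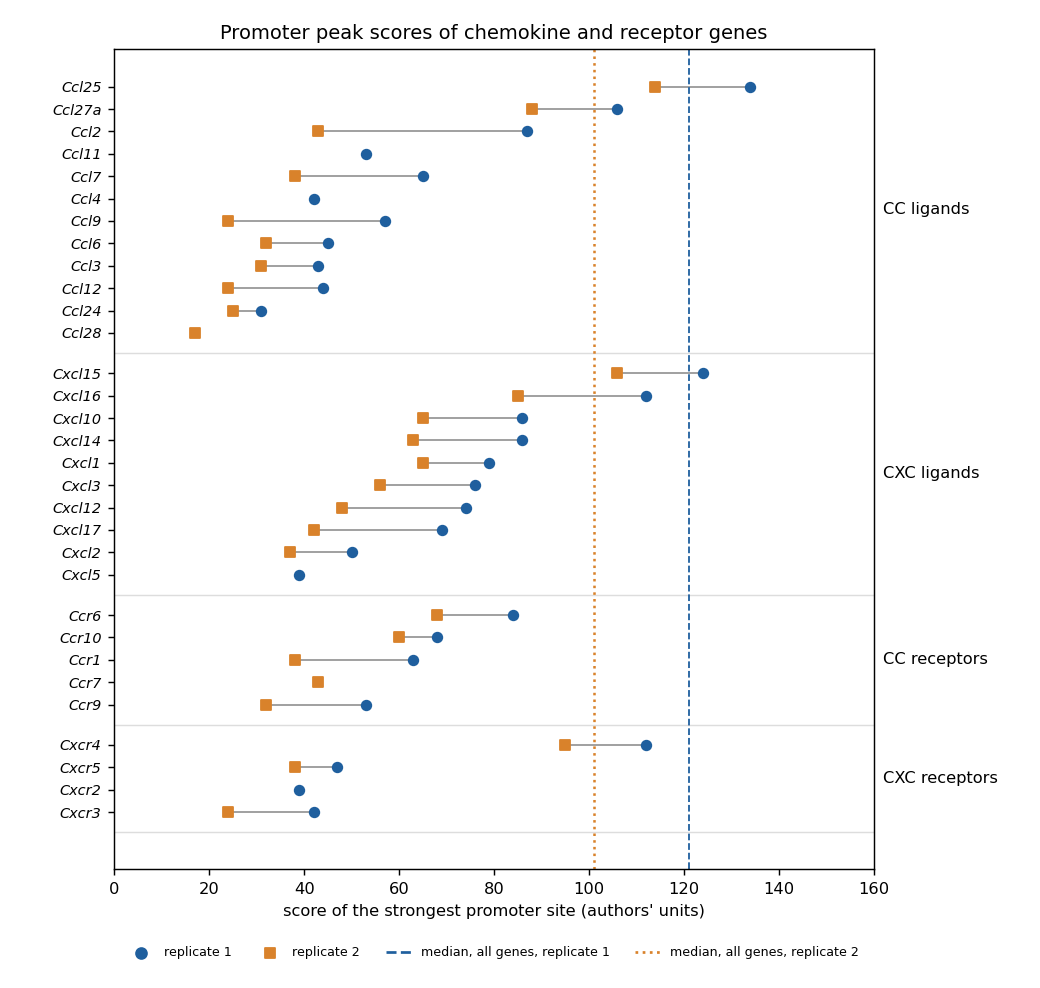
The score of the strongest promoter site (horizontal axis, the authors' units) is drawn for the genes with a promoter peak that are named here, by family, with circles for replicate 1 and squares for replicate 2; a lone symbol is a peak in that replicate only, and the vertical lines are the medians over all genes with a shared promoter site. Only Ccl25 and Cxcl15 lie to the right of both medians of 121 and 101.

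The shared sites at these promoters had low scores. The strongest shared promoter site of the 26 genes had a median score of 71.5 in replicate 1 and 45.5 in replicate 2; the medians over the 15032 protein-coding genes with such a site were 121 and 101. When both peaks had to score above the median of their own list, 13 of 52 genes (25%) had a shared promoter site, against 61.9% of all genes. Of the genes lost at that threshold, 7 were CC ligands, leaving Ccl25 and Ccl27a; the CXC ligands kept 7 of 9, the CC receptors 3 of 5 (among them Ccr6 and Ccr10) and the CXC receptors 1 of 3 (Cxcr4).

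Windows of 150 bp at the middle of promoter sites are shown for Cxcl15, Ccr6 and Cxcr4, which stood among the strongest of their families, and for Cxcl1 and Cxcl10, the ligands whose sites held an NF-kappaB match. They are the reference sequence of GRCm38 (mm10), 5′ to 3′ on the strand of the gene, and none overlaps an annotated exon. Capitals mark a C/EBP match in Cxcl15, a forkhead match in Ccr6 and NF-kappaB matches in Cxcl1 and Cxcl10. The Cxcr4 window had no match to any of the 10 motifs searched.
Cxcl15, chr5:90794216-90794365, plus strand: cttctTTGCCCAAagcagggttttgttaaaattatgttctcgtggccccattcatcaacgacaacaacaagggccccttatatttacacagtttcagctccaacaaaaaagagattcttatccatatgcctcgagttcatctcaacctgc
Cxcl1, chr5:90891086-90891235, plus strand: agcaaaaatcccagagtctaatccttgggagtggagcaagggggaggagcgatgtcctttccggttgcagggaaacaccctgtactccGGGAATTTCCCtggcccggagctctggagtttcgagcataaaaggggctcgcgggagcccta
Cxcl10, chr5:92348906-92349055, minus strand: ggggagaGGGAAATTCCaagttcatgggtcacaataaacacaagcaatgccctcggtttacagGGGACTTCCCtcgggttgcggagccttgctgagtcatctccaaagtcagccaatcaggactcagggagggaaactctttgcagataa
Ccr6, chr17:8244276-8244425, plus strand: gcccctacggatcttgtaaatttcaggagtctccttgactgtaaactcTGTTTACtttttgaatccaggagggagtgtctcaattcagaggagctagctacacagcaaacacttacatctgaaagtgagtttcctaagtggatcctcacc
Cxcr4, chr1:128592556-128592705, minus strand: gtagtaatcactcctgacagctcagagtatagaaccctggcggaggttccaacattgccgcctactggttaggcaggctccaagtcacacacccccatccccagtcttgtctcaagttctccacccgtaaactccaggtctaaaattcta

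Among the neutrophil ligands, Cxcl15 stood highest. Cxcl15, also called lungkine, is a mouse chemokine of airway epithelium, and its promoter site scored 124 in replicate 1 and 106 in replicate 2, above 96.9% and 96.1% of the peaks of each list. The middle of that site lay 243 bp upstream of the annotated start on chromosome 5, in a low-CpG promoter of 11 CpG dinucleotides within 500 bp. Cxcl1, the main ligand of CXCR2 in inflamed lung, scored 79 and 65, and Cxcl3 76 and 56. Cxcl2, another CXCR2 ligand, had a pair of weaker sites, 50 and 37 at 260 bp from the start and 44 and 35 at the start itself. These 4 genes had their peaks in both replicates and in the same order in each. Cxcl5, an epithelial CXCR2 ligand, had only a replicate 1 peak of 39 inside the promoter window. A shared site of 93 and 77 had its edge 815 bp from the nearest Cxcl5 start, and with a window of 1000 bp Cxcl5 joined the genes with a shared promoter site, 27 of 52 against 70.7% of all genes.

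Of the ligands of CXCR3, the receptor of activated T cells, Cxcl10 had a site scoring 86 and 65 centred 92 bp from its 5′ end, and its neighbour Cxcl9 had no promoter peak in either replicate. Both genes are induced by interferon. The nearest shared site to the Cxcl9 5′ end was 4542 bp away.

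Among the constitutive CXC ligands, Cxcl16, a membrane-anchored chemokine and the ligand of CXCR6, had 4 shared promoter sites, the strongest with 112 and 85. The divergent neighbour gene Zmynd15 has starts at the same sites, so the peaks cannot be assigned to either gene. Cxcl14, an epithelial chemokine, scored 86 and 63. Cxcl12, the ligand of CXCR4 and a guide of stem cells and vessels, scored 74 and 48 at a CpG-rich promoter. Cxcl17, a chemokine of mucosal epithelium, scored 69 and 42. Cxcl13, which draws B cells into follicles, had no promoter peak. The scores of Cxcl12 and Cxcl17 thus lay well under those of Cxcl16 in both replicates.

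The monocyte chemoattractants lie together on chromosome 11. Ccl2, the principal ligand of CCR2, scored 87 in replicate 1 and 43 in replicate 2. Ccl7 scored 65 and 38, and Ccl12 44 and 24. Ccl8 had no promoter peak. Of the eosinophil chemoattractants, Ccl24 scored 31 and 25, the lowest replicate 1 score among the 26 genes with a shared promoter site. Ccl11, or eotaxin, had a replicate 1 peak of 53 and none in replicate 2.

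The macrophage inflammatory protein group had low scores throughout. Ccl3 scored 43 and 31 and Ccl6, a myeloid chemokine of rodents, 45 and 32. Ccl4 had a replicate 1 peak of 42 only, and Ccl5, made by T cells and platelets, had none. For Ccl9, another CCR1 ligand of rodents, the shared site of 57 and 24 lay 1375 bp inside the gene at the start of a noncoding transcript, and the 5′ end of the gene had a replicate 1 peak of 59 alone.

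Most of the CC ligands of lymphoid organs and epithelia had no promoter peak. Ccl1, Ccl17, Ccl19, Ccl20, Ccl21a, Ccl21b, Ccl22, Ccl26 and Ccl27b had none in either replicate, and Ccl28, a mucosal ligand of CCR10, had a single replicate 2 peak of 17. Ccl27a, the skin-derived ligand of CCR10, scored 106 and 88 at the starts near its 5′ end. Its coding starts between 2700 and 4035 bp downstream had no peak in either replicate. Ccl25, the thymic and intestinal ligand of CCR9, had the highest score of all 52 genes at 134 and 114, but that site is also at the start of Elavl1, which encodes a widely expressed RNA-binding protein. The Ccl25 starts 24378 bp downstream had no peak in either replicate. With RefSeq starts in place of GENCODE starts, Ccl25 had no promoter site.

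For 5 of these ligands, most of the sequence around the 5′ end recurs elsewhere in the genome. Counted as 32-base words within 500 bp of the 5′ end, 100% of words recurred for Ccl21b and Ccl27b, 84% for Ccl19, 72.5% for Ccl21a and 64.1% for Ccl27a, against 21.4% at most for the other members. Ccl19, Ccl21a, Ccl21b and Ccl27b also had no distal site within 50 kb in either replicate, and their nearest shared site was between 96948 and 481556 bp away. The sources used here do not say how reads that fit several places were treated, and the part of this in these values was not tested. Without the 5 genes, 25 of 47 (53.2%) had a shared promoter site.

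Among CC receptors, some of the sites lay away from the 5′ end of the gene. Ccr1, a receptor of neutrophils and monocytes, had its site of 63 and 38 at its start. Ccr10, a receptor of skin- and mucosa-homing lymphocytes, scored 68 and 60, the smallest difference between replicates on the log2 scale (0.18). Ccr6, the receptor for Ccl20, had its site of 84 and 68 at 8308 bp inside the gene, near coding starts 7768 bp from the 5′ end. Ccr9, a receptor of thymocytes and gut-homing T cells, had 53 and 32 at a far upstream start beside Slc6a20a, and no peak at its RefSeq start. Ccr7, which guides dendritic cells and T cells to lymph nodes, had a replicate 2 peak of 43 only. No promoter peak was listed for Ccr1l1, Ccr2, Ccr3, Ccr4 or Ccr8. The receptors Ccr6 and Ccr9 thus counted as having a promoter site through starts inside the gene or far upstream of the RefSeq start.

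Among CXC receptors, Cxcr4 stood apart. Cxcr4, the receptor for Cxcl12 on endothelium, progenitors and leukocytes, had a site of 112 and 95 centred 338 bp upstream of its 5′ end and a weaker shared site of 57 and 42. Over its start itself lay a peak of 75 in replicate 2 that had no counterpart in replicate 1. Cxcr5, the receptor of B cells for Cxcl13, scored 47 and 38 at a far upstream start that RefSeq does not list. Cxcr3, on chromosome X, scored 42 and 24. Cxcr2, the neutrophil receptor, had a replicate 1 peak of 39, and Cxcr1 and Cxcr6 had none.

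Set against their ligands, Cxcl12 and Cxcr4 both had a shared promoter site, as did Ccl27a and Ccr10, and Cxcl10 and Cxcr3. The same held for Ccr1 with Ccl3, Ccl6 and Ccl9, and for Ccr9 with Ccl25. With RefSeq starts, Ccl9, Ccl25, Ccr9 and Cxcr5 had no shared promoter site. The receptor was without a shared promoter site where at least 1 ligand had one for CCR2 (Ccl2, Ccl7 and Ccl12), CXCR2 (Cxcl1, Cxcl2, Cxcl3 and Cxcl15), CCR3 (Ccl24) and CXCR6 (Cxcl16). The reverse held for Ccr6 and its ligand Ccl20, and for Cxcr5 and its ligand Cxcl13. For Ccr4 with Ccl17 and Ccl22, and for Ccr7 with Ccl19 and Ccl21a, neither side had a shared site. The leukocyte markers at the promoters of the same libraries were likewise uneven: Ptprc scored 43 and 43, Itgam 49 and 32 and S100a8 73 and 63, Spi1 (64) and Csf1r (51) had replicate 1 peaks only, and Cd3e had a replicate 2 peak of 31 only. The part of leukocyte number in the receptor values was not tested.

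CpG-rich promoters are open in most cell types, whereas CpG-poor promoters usually open with the cell type or stimulus. The median CpG number within 500 bp of the 5′ end was 12.5 for the 52 genes and 41.0 for all protein-coding genes, and 34 of the 52 fell in the lowest 3 deciles of all genes (15 CpG or fewer). In that low class 13 of 34 genes (38.2%, interval 22.2% to 56.4%) had a shared promoter site, against 24.2% of all low-CpG genes. In the middle class 9 of 14 genes (64.3%) had one, against 80.9%, and in the high class 4 of 4 (Ccl25, Cxcl12, Cxcl14 and Ccr9), against 96.7%. The CpG number belongs to the 5′ end of the gene model, but a promoter site could lie at any start. The Ccr6 site, for example, lay 8308 bp from that end. Counting only sites at the 5′ end gave 10 of 34 low-CpG members (29.4%), against 13.8% of all low-CpG genes. The order in the low class turned with the score: requiring both peaks above their list medians left 3 of 34 genes (8.82%; among them Cxcl15 and Ccr6), against 17.0% of all low-CpG genes. Low-CpG members with a site had median scores of 63.0 and 38.0, against 85.0 and 61.0 for all low-CpG genes with one.

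**Figure D2:**
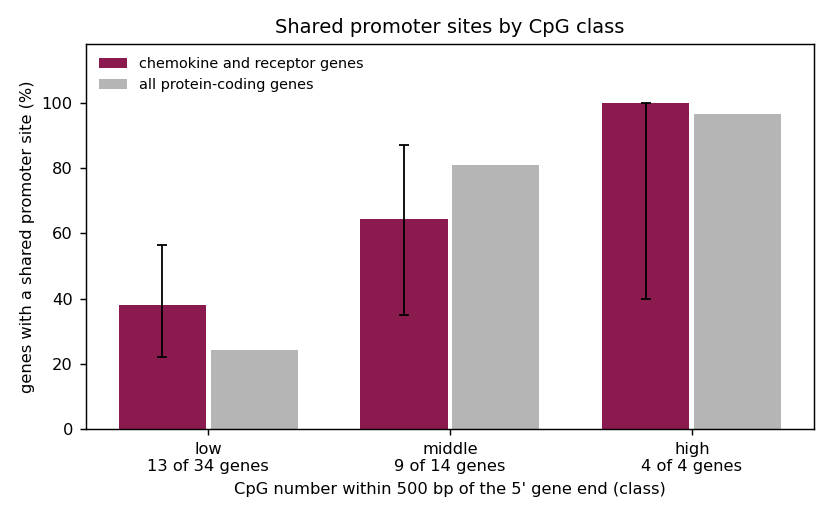
The percentage of genes with a shared promoter site (vertical axis) is drawn for the low, middle and high CpG classes, with dark bars for chemokine and receptor genes and grey bars for all protein-coding genes; error bars are exact 95% binomial intervals, which cover counting error only. The low-class bar of 38.2% is above the 24.2% of all genes, the middle-class bar of 64.3% is below 80.9%, and both of these grey bars lie within the dark bars' intervals.

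All 26 shared promoter sites scored higher in replicate 1 than in replicate 2. The log2 ratio of the scores ran from 0.18 (Ccr10) to 1.25 (Ccl9), with Ccl2 at 1.02, and its median was 0.44 against 0.24 for all genes with a shared promoter site. Ratios were larger for weak sites in both sets: among sites with a geometric mean score below 50 the median was 0.73 for 11 member genes and 0.49 for 1288 genes in all, and from 50 to 75 it was 0.44 for 8 member genes and 0.47 for 1741. The rank of a site in its own list also fell for most of them; Ccl2 stood above 83.8% of peaks in replicate 1 and 50.6% in replicate 2, and Ccl9 above 59.4% and 13.5%. Ccr10 ranked slightly higher in replicate 2 (70.1% and 72.7%). The labels name 2 instrument models for replicate 1 and none for replicate 2, and the lists differ in length. The part of these in the ratios was not tested.

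**Figure D3:**
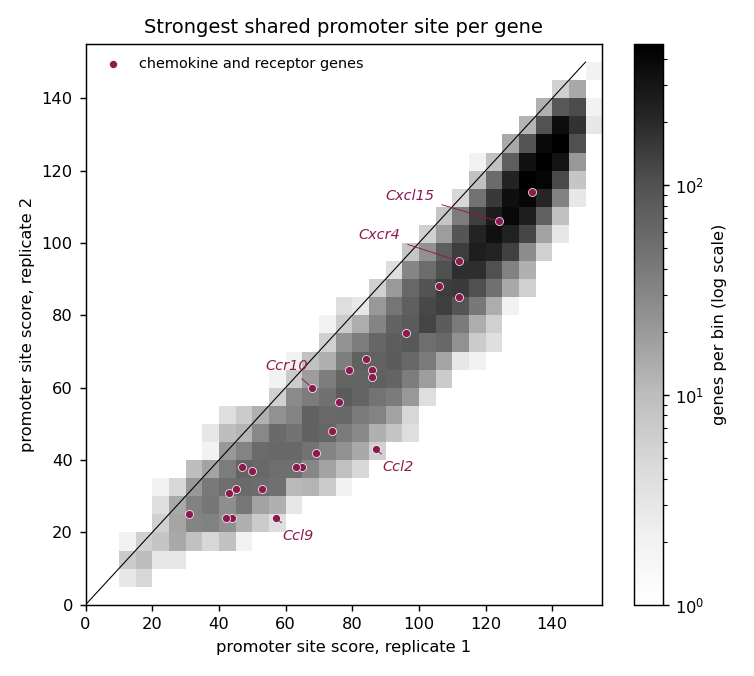
The score of the strongest shared promoter site of each gene in replicate 1 (horizontal axis) is drawn against replicate 2 (vertical axis), with all protein-coding genes as grey bins, darker with more genes on a log scale, and chemokine and receptor genes as points; the line marks equal scores. All 26 points are below the line, and Ccl2 (87 and 43) and Ccl9 (57 and 24) are farthest from it for their score.

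Hotspots gave the same 26 genes as peaks, against 69.2% of all genes with a promoter hotspot in both replicates. The hotspot value was at its ceiling of 100 in both replicates for 12 of the 26, among them Cxcl1, Cxcl10, Cxcl12, Cxcl15 and Cxcr4. It was at the ceiling for 16 of the 26 in replicate 1 and 12 in replicate 2. Of all listed hotspots, 39.5% in replicate 1 and 36.2% in replicate 2 were at the ceiling. The share at the promoters of all genes was not counted. For Ccl2 the hotspot value was 100 in replicate 1 and 3.85 in replicate 2, and for Ccr1 100 and 5.52. For Ccl3 it was 1.78 and 2.62, so this gene was weak in both.

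Just inside the limit of 500 bp lay shared sites of Ccr6 (84 and 68, edge 442 bp from a start), Cxcl16 (74 and 60, 443 bp) and Ccr10 (64 and 47, 413 bp), and just outside it lay shared sites of Cxcr4 (53 and 45, 605 bp) and Cxcl2 (49 and 30, 666 bp). Only for Ccr6 was such a site the sole shared one. With a limit of 200 bp, 21 of 52 genes had a shared site, against 66.2% of all genes, and those lost were Ccr6, Ccr9, Ccr10, Cxcl3 and Cxcr4. With RefSeq curated starts 22 of 52 had a shared site, against 69.0% of all genes so placed: Ccl9, Ccl25, Ccr9 and Cxcr5 were among those that lost theirs, and Ccr1l1 gained one. With starts of protein-coding transcripts only, 24 of 52 had one, against 67.4% of all genes, and Ccl9 was among those lost.

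The strongest shared promoter site of each of the 26 genes was searched on both strands for 10 short motifs, in the 150 bp window. Further shared promoter sites of the same genes were not searched. The values stand beside 13830 distinct promoter sites of all genes and 1592 of low-CpG genes. The AP-1 motif TGANTCA occurred in 4 of 26 sites (15.4%), those of Ccl7, Ccl9, Cxcl10 and Cxcl14, against 3.20% of all sites and 7.66% of low-CpG sites. NF-kappaB, searched as its 10-base consensus, matched 2 of 26 sites (7.69%), against 2.44% and 1.95%. The matches in Cxcl1 overlap each other and are centred 61 and 62 bp upstream of the 5′ end, and those of Cxcl10 are centred 99 and 155 bp upstream. The forkhead motif TGTTTAC occurred in Ccr6 and Cxcr5 (7.69%, against 1.25% and 2.51%), and the TATA box TATAAA in Ccl6 and Ccl7 (7.69%, against 2.40% and 4.52%). C/EBP, as TTGCNNAA, was found in Ccl9 and Cxcl15 (7.69%, against 4.02% and 9.17%), and the PU.1-type motif GAGGAA in 5 sites (19.2%, against 14.4% and 20.8%). The motifs of CpG-rich promoters were scarcer: the GC box GGGCGG was in 4 sites (15.4%), against 54.3% and 28.6%, and the ETS motif CGGAAG, which cannot share a core with GAGGAA, in the Ccl27a site alone, against 21% and 10.2%. The HIF core ACGTG was in no site of the 26, against 15.3% and 10.9%, and the interferon response element in none, against 1.46% of all sites. Of the 26 sites 13 belong to low-CpG genes, the set that the low-CpG share matches. Among those 13, AP-1, C/EBP, forkhead and TATA box motifs each occurred in 2 (15.4%) and the PU.1-type motif in 3 (23.1%). NF-kappaB, the GC box, the ETS motif, the HIF core and the interferon response element occurred in none of them. Median GC content was 50.3% in the members' windows, 64.7% in all and 55.3% in low-CpG ones, so the windows differ in base composition as well. A match describes the letters and says nothing of binding.

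Away from promoters, distal sites (centre over 1000 bp from any start) were about as many within 50 kb of these genes as of others. The window held the gene body and 50 kb on each side, so a longer gene model had a longer window. A gene had a median of 8.50 shared distal sites within 50 kb, from 0 to 20, against 8 for all protein-coding genes. The order depended on the window, with a median of 3 against 4 for all genes within 20 kb and 18 against 15 within 100 kb. Within 50 kb, 48 of 52 (92.3%) had at least 1, against 89.0%. Medians by family were 8 for CC ligands, 10.5 for CXC ligands, 9 for CC receptors and 7.50 for CXC receptors. The 344 distinct sites had median scores of 64.0 and 45.0, against 63.0 and 43.0 for all 120862 shared distal sites. Of them 182 were intergenic, 127 intronic and 35 in exons, and 99 were within 50 kb of more than 1 member, so the counts of neighbouring genes are not independent.

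**Figure D4:**
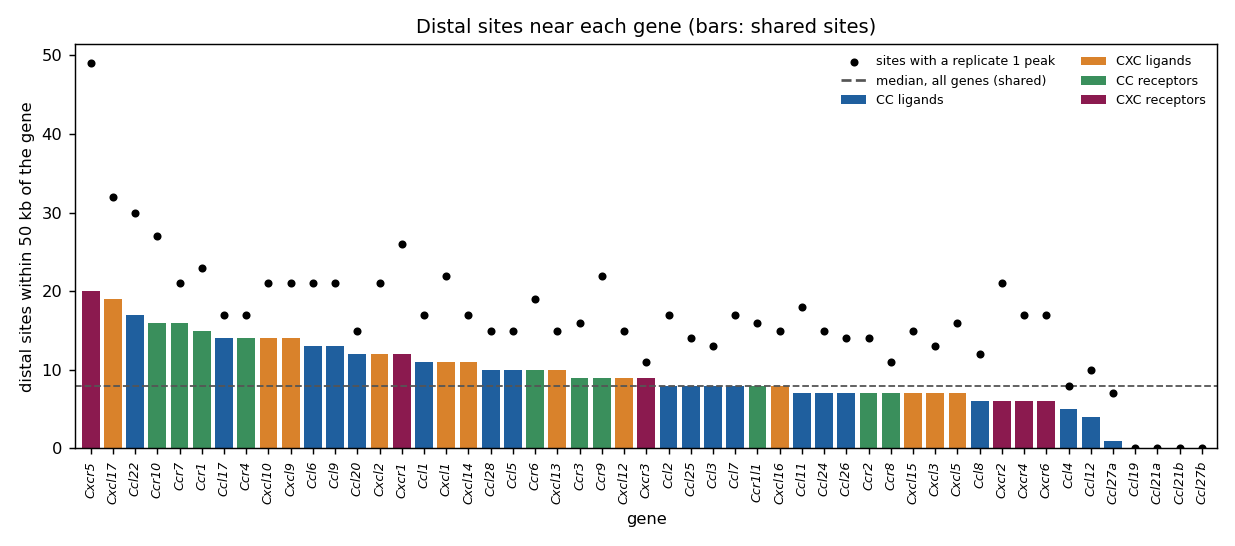
The number of shared distal sites within 50 kb of the genes named here (bars, coloured by family) is drawn in falling order, with points for the sites that have a replicate 1 peak and a dashed line at the median of 8 for all genes. Cxcr5 has 20 and Cxcl17 19, and the last 4 genes, Ccl19, Ccl21a, Ccl21b and Ccl27b, have 0.

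Shared distal sites were most numerous at Cxcr5 (20), Cxcl17 (19), Ccl22 (17), Ccr10 (16) and Ccr7 (16). For Cxcr5 the strongest of them scored 129 and 104, at chr9:44603556-44603725, in intergenic sequence 41764 bp upstream of its 5′ end. For Cxcl17 it scored 123 and 106, at chr7:25386296-25386465, in an intron of Lipe, the gene of hormone-sensitive lipase, 26505 bp downstream of the Cxcl17 5′ end. Both of these scored higher than the promoter site of the gene itself. Ccl22, a macrophage and dendritic cell ligand of CCR4 with no promoter peak, had a site of 113 and 90 at chr8:94702956-94703105, intergenic and 42559 bp upstream. Ccr10 had one of 115 and 86 at chr11:101189636-101189785, in an exon of Cntnap1. Ccr7, with a promoter peak in replicate 2 alone, had one of 108 and 79 at chr11:99141736-99141885, 13266 bp beyond its 5′ end in the direction of transcription and intergenic. Distance does not assign a site to a gene, and each of these windows holds other genes. The Cxcr5 window is also widened by a gene model that reaches the far upstream start not listed by RefSeq.

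The chemokine genes are clustered, and the clusters differed in their density of shared sites. The CXC ligand cluster of chromosome 5 (Cxcl5, Cxcl3, Cxcl15, Cxcl1 and Cxcl2) held 23 shared sites in 147 kb, or 15.7 per 100 kb, with shared promoter sites at 4 of 5 genes. The cluster of Ccl5, Ccl9, Ccl6, Ccl3 and Ccl4 on chromosome 11 held 20 in 139 kb, or 14.4 per 100 kb, although its promoter scores were low. The Ccl2 to Ccl1 cluster of the same chromosome held 19 in 270 kb, or 7.03 per 100 kb, where the Ccl1 model extends far upstream of its coding start through a noncoding transcript. Ccl22 and Ccl17 on chromosome 8 had no promoter peak, but their span held 12 shared sites in 66.4 kb, or 18.1 per 100 kb. Of the 12, 10 were distal. The same span holds Cx3cl1, another chemokine gene, whose promoter site scored 110 and 72 and which has some of the distal sites in its introns and exons. The span of Ccl27b, Ccl19 and Ccl21a on chromosome 4 held none in 119 kb. The genome as a whole held 5.91 shared sites per 100 kb, and the 50 kb windows of all protein-coding genes 8.20, against 11.5 in the windows of the members.

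**Figure D5:**
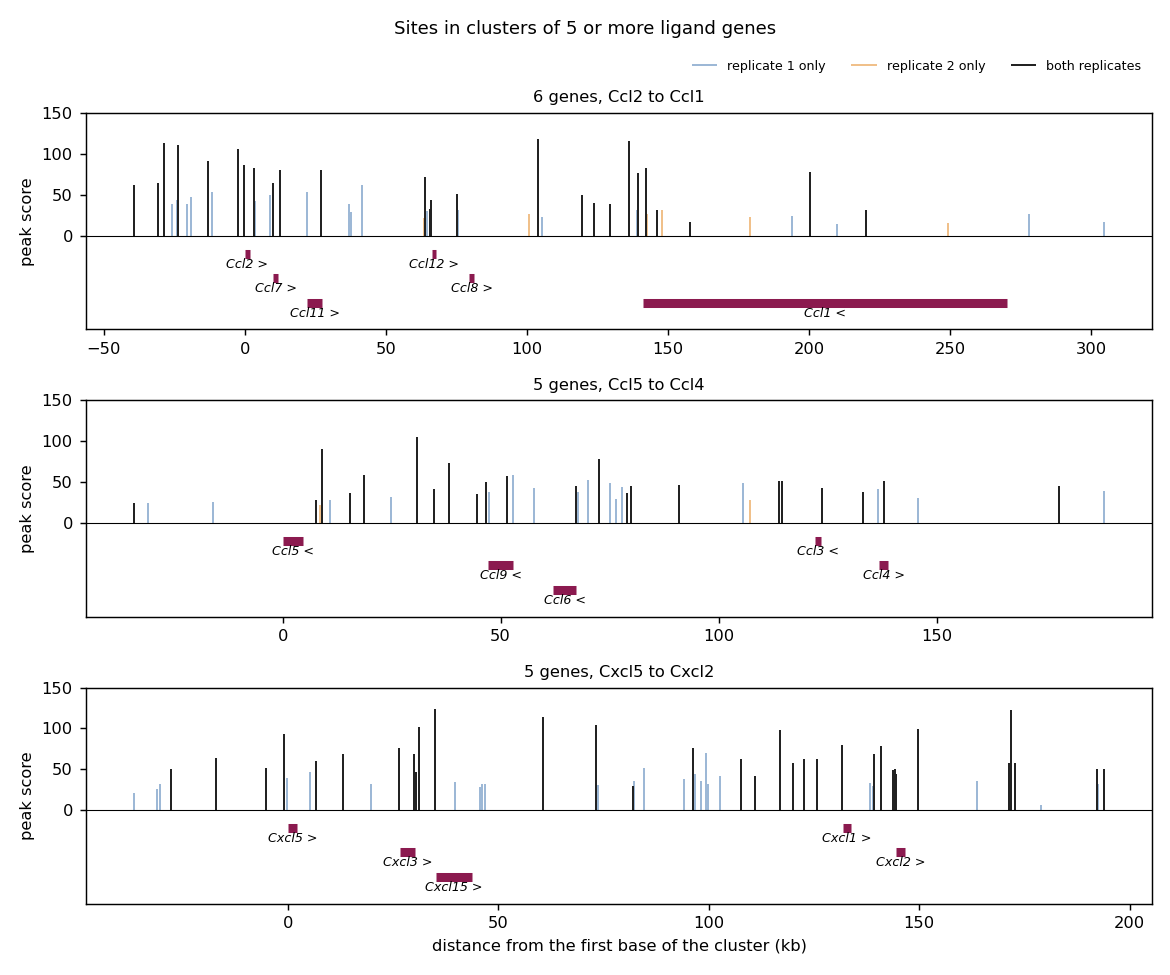
Sites in the 3 clusters of 5 or more ligand genes are drawn as vertical lines at their distance from the first base of the cluster (kb), with the height giving the peak score (the higher of the replicates), black for shared sites and colour for sites of 1 replicate; the bars underneath are the genes, with arrowheads for strand. The CXC ligand cluster has shared sites along its length, while the shared sites scoring above 100 in the Ccl2 to Ccl1 cluster lie upstream of Ccl2 or between Ccl8 and the 3′ end of Ccl1.

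The rest of the chemokine system was described from a list of 26 further genes, of which 20 (76.9%) had a shared promoter site, close to the 68.5% of all protein-coding genes. Among its ligands and receptors it was 2 of 4 other chemokines (Cx3cl1, the membrane-bound fractalkine, at 110 and 72, and Pf4, of platelets, at 68 and 36, but not Xcl1 or Ppbp) and 3 of 7 other receptors. These were Ackr3, a scavenger receptor of Cxcl12, at 122 and 104, Ccrl2 at 95 and 62 and Ackr2, a scavenger of CC ligands, at 58 and 36, but not Cx3cr1, Xcr1, Ackr1 or Ackr4. All 15 genes of receptor signalling had one, beside shares of all genes of 24.2%, 80.9% and 96.7% in the low, middle and high CpG classes, from Gnai2, the inhibitory G protein subunit, at 145 and 133 to Rgs1, a leukocyte regulator of G protein signalling, at 36 and 25. Ackr3 and Cxcr4, the receptors of Cxcl12, thus both scored above Cxcl12 itself in both replicates.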

How the data were processed

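DNase-seq of newborn mouse lung was analysed from the peak and hotspot lists of 2 biological replicates, on mm10 per the labels. The aligner, peak caller, filters and read depth are not given in the sources used here. Both measures, the deposited peak score (whole numbers up to 150) and the deposited hotspot −log10 q value (at most 100), were used as they stand; no normalization is stated. Intervals on 21 chromosomes (19 autosomes, X and Y) were kept and exact duplicates dropped. Promoters, distal sites and 50 kb windows used GENCODE M21 (GRCm38), and RefSeq GRCm38.p6 supplied alternative starts; the sequences come from the RefSeq copy of GRCm38. Sharing required 1 bp of overlap. With 1 group no test between conditions was possible, and shares are given beside those of all protein-coding genes, with exact binomial intervals. Every member with a promoter peak was named, as were the 5 with most distal sites and, for sequences, up to 2 of the strongest per family, except windows overlapping untranslated exons; Cxcl1 and Cxcl10 were added after their matches were seen. Single results for a few genes are not reported here. Members and lists were chosen with earlier results of these data known. The code for promoter calls was checked on simulated peaks, and it returned the planted status (shared, replicate 1 only or none) for 300 of 300 genes. The planted starts had no other start nearby. Such a check concerns the code and not the reliability of the peak lists. Python 3.11.15, pandas 2.3.3, numpy 2.4.6, scipy 1.17.1 and pysam 0.24.0 were used.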

Additional observations from a re-analysis of the deposited data

How the results depend on the processing

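Across the alternatives, 41 values stayed close to the reported one and 12 moved. The limits for this were wide: 242 distinct distal sites by nearest protein-coding start counted as close to 344. For the median of distal sites the limit was the standard deviation of the values from 1 replicate alone, themselves among the alternatives. For scores it was the standard deviation between genes. Of the 41, 10 concern the 26 further genes of the chemokine system. Requiring peaks above their list's median score lowered the genes with a shared promoter site from 26 to 13 of 52, the low-CpG genes with one from 13 to 3 of 34, the median of distal sites from 8.50 to 4 (all genes also 4) and the distinct distal sites from 344 to 182. Hotspots above their list's median left 15 of 52 genes with a promoter hotspot in both replicates. The share of all genes at that threshold was not counted. Using 1 replicate alone gave 28 to 30 genes with a promoter peak, the same range for hotspots, 15 to 16 low-CpG genes, 20 of the 26 further genes of the chemokine system in each case, a median of 10 to 16 distal sites (all genes 9 to 13) and 378 to 604 distinct ones; the higher distal values came without replicate 2, whose list is shorter. A window of 20 kb gave a median of 3 distal sites (all genes 4) and 173 distinct ones, a window of 100 kb 18 (all genes 15) and 520, and assignment to the nearest protein-coding start a median of 3 (all genes 2). The order against all genes thus turned at 20 kb. Other promoter limits, start annotations and reciprocal overlap gave 21 to 27 genes. Leaving out the 5 genes with recurring sequence, an alternative chosen after seeing the data, gave 25 of 47. Replacing scores by their rank in the list gives no value on the same scale, so ranks were printed beside scores. No paired analysis was possible because there is a single group. Depth is unknown, so a promoter without a listed peak is one not detected in these lists.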

Other observations

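Peaks near a few of these genes were listed in replicate 1 or replicate 2 alone. Cxcr5 had 49 distal sites with a replicate 1 peak within 50 kb, but 20 with a replicate 2 peak, and all other members had at most 32 in replicate 1. The replicate 2 peak over the Cxcr4 start, at chr1:128592276-128592425, scored 75, above 84.7% of its list, and had no overlapping peak in replicate 1. At the Ccl25 and Elavl1 start a replicate 1 peak of 91 at chr8:4324756-4324905, above 86.0% of its list, had no overlapping peak in replicate 2. These sites were chosen after their values were seen.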
